A study of Mus musculus with 58 samples.

Results

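The immediate early genes examined here are Fos, Fosl1, Jun, Junb, Jund, Egr1, Ier2, Ier3, Atf3 and Dusp1. They were chosen by name, and make up 10 of the 20177 genes counted here in mouse embryonic stem (mES) cells. For every gene, the reads of all its annotated 3′ UTR intervals were summed.

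Immediate early genes are switched on within minutes of a growth factor, stress or serum stimulus, without a need for new protein. The signal runs through the RAS–MAP kinase cascade to factors already bound at their promoters, among them SRF with its ternary complex partners and CREB. Their mRNAs are short-lived, and many carry AU-rich elements in the 3′ UTR that bind decay factors, so that their level follows synthesis closely. Fos, Fosl1, Jun, Junb and Jund encode subunits of the dimeric transcription factor AP-1. Egr1 encodes a zinc-finger transcription factor, Atf3 a stress-induced factor of the ATF/CREB family and Dusp1 a phosphatase that switches MAP kinases off again. Ier2 encodes a small nuclear protein, and Ier3 a regulator of survival under stress. Many of these promoters are known as sites at which RNA polymerase II pauses before elongation.

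All cells were E14 mES cells of the 129/Ola background grown in serum with LIF, and the edited lines were clones. DPY30–mAID cells carry an auxin-inducible degron on both copies of Dpy30, a core subunit of the complexes that methylate H3K4, together with an integrated OsTIR1-P2A-mCherry transgene that auxin needs to act. The dKO cells (DPY30mAID_Kdm5dKO) are DPY30–mAID cells in which the H3K4 demethylase genes Kdm5a and Kdm5b were also knocked out. The study picked 2 such clones, and the labels do not say which library came from which. RBBP5–FKBP cells carry a dTAG degron on Rbbp5, another core subunit, and no OsTIR1. SLAM-seq, in which RNA made during the last 60 min is marked with 4-thiouridine (4SU, 100 μM) and read as T>C conversions, was done after 0, 2, 8 and 24 h of auxin (DPY30–mAID, 3 replicates each) or dTAG-13 (RBBP5–FKBP, 3 replicates each), and after 0, 2, 4, 8, 24 and 48 h of auxin in dKO cells (2 replicates each). Quant-seq, which counts 3′ ends of unlabelled RNA, was done in DPY30–mAID cells at 0 h in DMSO and after 8 h and 1, 2, 4 and 6 days in 1 μM retinoic acid (RA) with DMSO or auxin, with 2 replicates each. LIF was left out of the RA medium, so that RA and the loss of LIF cannot be told apart. The study calls the SLAM-seq replicates biological, and the labels do not tie any replicates to separate cultures, so the p-values measure the spread between these libraries.

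SLAM-seq libraries held 2013350 to 2806821 reads in DPY30–mAID cells, 1721185 to 2852331 in RBBP5–FKBP cells and 5931269 to 7792404 in dKO cells, and Quant-seq libraries 1264241 to 2543632. The 2 DMSO libraries of RA day 6 held identical counts and were used as 1. T>C reads made up 5.51 to 16.1% of all reads in DPY30–mAID cells, 4.85 to 10.1% in RBBP5–FKBP cells and 2.04 to 5.27% in dKO cells, against 0.303 to 0.388% in unlabelled Quant-seq libraries. The 8 h DPY30–mAID libraries stood apart from each other in this share (13, 9.82 and 5.51%). The 6 markers of ES cells were detected in every group (summed level 3087 to 4059 CPM in SLAM-seq, where CPM are the reads of a gene scaled to 1000000 reads of its library), and 5 markers each of primitive endoderm and of fibroblasts summed to at most 24.8 and 25 CPM there, with 2 fibroblast markers not detected in DPY30–mAID cells and 1 in RBBP5–FKBP cells. In bulk RNA, fewer cells expressing a gene and less RNA per cell cannot be told apart.

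The AU-rich element was looked for first, because it is the sequence feature best known from short-lived mRNAs of this kind. The search covered the last 450 bases of the intervals (GENCODE vM21, build GRCm38, transcript strand) for the letters TATTTAT, and was added after the values were seen. Of 13652 such windows in all genes 13.6% held at least 1 match and 2.2% at least 2. Of the 9 members with a window 6 held it: Ier3 4 times, Fos and Dusp1 2 times each, and Jun, Jund and Atf3 1 time each. Junb, Egr1 and Ier2 held none, and Fosl1 had no window. The first match of each is shown with its flanks, 5′ to 3′ and with the motif in capitals.
Fos (chr12:85477104-85477130, plus strand): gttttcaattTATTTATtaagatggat
Ier3 (chr17:35822482-35822508, plus strand): gtctaattaaTATTTATgTATTTATgt
Dusp1 (chr17:26505871-26505897, minus strand): tttttaccttTATTTATttttgtgtag
Jun (chr4:95049080-95049106, minus strand): tgcttgtgcaTATTTATaatagcgttc
Jund (chr8:70700360-70700386, plus strand): gattccgcccTATTTATgtttctactc
Atf3 (chr1:191170339-191170365, minus strand): aaatattactTATTTATcccagtattc

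Promoter windows of 250 bases upstream of the start were at hand for 7 members (Fos, Jun, Junb, Jund, Ier3, Atf3 and Dusp1; RefSeq, GRCm38.p6). They were searched on both strands for the CArG box that SRF binds, the cAMP response element TGACGTCA, the AP-1 site TGANTCA, the ETS site CCGGAAG and the TATA box TATAAA. A match says only that the letters are there. Fos held a TATA box 33 to 28 bases before its start, a motif found in 12.4% of 32841 promoter windows, and Dusp1 held a cAMP response element 143 to 136 bases before its start, found in 1.55%. The CArG box, the AP-1 site and the ETS site, present in 1.47%, 6.75% and 6.91% of windows, were not matched by these exact letters in the 7. Both matches are shown in capitals.
Fos (chr12:85473847-85473872, plus strand): acagcgcttcTATAAAggcgccagct
Dusp1 (chr17:26508598-26508625, minus strand): gtagggcgggTGACGTCAccgcccggtc

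Junb, Ier2 and Egr1, which held no AU-rich match, and Fosl1, which was not searched, lie on chromosome 8 (Junb at 84974484 to 84978718 and Ier2 at 84661331 to 84662852, both on the minus strand), chromosome 18 (Egr1 at 34859823 to 34864984, plus strand) and chromosome 19 (Fosl1 at 5447547 to 5455946, plus strand) in GRCm38. The reads of all 10 genes come from 3′ UTRs.

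Before any ligand the lines already differed in some of these genes. In total reads Egr1 stood at 56.3, 78.2 and 57.7 CPM in the RBBP5–FKBP libraries at 0 h and at 6.84, 5.34 and 4.35 in the DPY30–mAID libraries. The groups did not overlap, and the fitted log2 difference was 3.54 ± 0.36 (SE; adjusted p = 2.45e-10, edgeR quasi-likelihood test). Junb stood at 80.4, 89.4 and 64.6 against 24.4, 30.6 and 46 CPM (log2 difference 1.18 ± 0.19, adjusted p = 7.9e-06). Jund stood at 202, 164 and 141 against 57.1, 72 and 51.1 (1.47 ± 0.18, adjusted p = 2.8e-08). Of the Jund reads in the files 57.2% also mapped elsewhere, against at most 0.403% for any other member, so every Jund value is uncertain. A gene was called when its adjusted p over all tested genes was below 0.05 and its change exceeded 2-fold. By that rule 3 of 10 members were called between these lines, and so were 9.08% of all 11562 genes. These comparisons between lines were added after the values were seen, and line and library preparation cannot be told apart.

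Atf3 separated the dKO cells from the other lines. It had no read in any of the 3 DPY30–mAID or 3 RBBP5–FKBP libraries at 0 h, and 49 and 56 reads in the dKO libraries. Against the limit that 3 reads over the DPY30–mAID group set, its level was at least 18.3-fold higher in dKO cells (adjusted p = 1.49e-05), the only line in which it passed the filter on low reads in SLAM-seq. Without DPY30–mAID replicate 2 or 3 at 0 h, which leaves less depth behind the limit, it was at least 11.5 and 11.6-fold. Across all 12 dKO libraries it ranged from 5.92 to 14.7 CPM, whereas the 12 RBBP5–FKBP libraries held 2 Atf3 reads in all and the 12 DPY30–mAID libraries 11. Atf4, whose product is a stress-response factor, was also higher in dKO cells at 0 h (log2 difference 2.01 ± 0.13, adjusted p = 1.88e-16), and its part in the Atf3 level was not tested. Markers of other cell types moved with it: those of primitive endoderm summed to 20.3 to 24.1 CPM in dKO cells at 0 h against 2.14 to 11.7 in DPY30–mAID cells (3 of 5 called higher, with Sox17 and Pdgfra at 0 in DPY30–mAID cells), and those of fibroblasts to 20 to 25 against 1.78 to 2.54 (1 of 2 tested called higher, with Col3a1 and Dcn at 0 in both lines). In Quant-seq at 0 h, DPY30–mAID cells themselves summed to 35 to 45.2 CPM for the same fibroblast markers. Those of primitive endoderm summed to 8.96 to 9.44 there. The part of these markers in the Atf3 and Ier3 levels was not tested. Ier3 was lower in dKO cells, at 11 and 8.34 against 39.1, 30.3 and 27.5 CPM (−1.71 ± 0.38, adjusted p = 0.000289). With these 2 of 10 members called, the share over all genes was 21.6%. Kdm5a and Kdm5b themselves, read at their 3′ ends and so not across every edit, stood at 26.7 ± 1.01 and 130 ± 30.2 CPM (SD, n = 2) in dKO cells, against 95.1 ± 17.9 and 921 ± 22 (SD, n = 3) in DPY30–mAID cells.

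Of the members that passed the filter on low reads, Egr1 moved furthest in total reads after degradation, upward in the lines with the DPY30 degron and downward in the line with the RBBP5 degron. In DPY30–mAID cells it stood at 14, 15 and 12 reads at 0 h, at 18, 7 and 9 after 2 h of auxin, at 8, 7 and 26 after 8 h, and at 140, 75 and 114 after 24 h. The 24 h libraries all lay above every earlier library. The level rose from 5.51 ± 1.25 to 46.2 ± 9.9 CPM (SD, n = 3), a log2 change of 3.06 ± 0.42 (SE; adjusted p = 8.3e-08). In dKO cells it was 9.41 and 10.9 CPM at 0 h, 10.8 and 10.3 at 2 h, 12.8 and 12.6 at 4 h, and 16.1 and 15.6 at 8 h, then 53.5 and 47.5 at 24 h and 54 and 66.7 at 48 h. The dKO rise was 2.24 ± 0.15 at 24 h (adjusted p = 2.99e-07) and 2.48 ± 0.15 at 48 h (adjusted p = 1.03e-07) on the log2 scale.

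In RBBP5–FKBP cells the level of Egr1 went the other way. It fell from 56.3, 78.2 and 57.7 CPM at 0 h to 27.6, 22.1 and 17.9 after 8 h of dTAG-13 and to 17.7, 18.6 and 13 after 24 h, with 20.3, 52.6 and 56.2 in between at 2 h. The 8 h and 24 h libraries lay below all 0 h libraries. The log2 change was −1.56 ± 0.32 at 8 h (adjusted p = 0.00287; −1.42 and 0.0609 without replicate 2, so no longer called) and −1.99 ± 0.32 at 24 h (adjusted p = 0.000344). The effects at 24 h differed between RBBP5–FKBP and DPY30–mAID cells by −5.07 ± 0.48 on the log2 scale (adjusted p = 3.45e-10), in a test added after the values were seen. The 24 h level in RBBP5–FKBP cells, 16.5 ± 3.02 CPM, still lay above all 3 DPY30–mAID libraries at 0 h. The effects in dKO and DPY30–mAID cells differed by −0.83 ± 0.51 at 24 h, which did not pass the test.

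**Figure D1:**
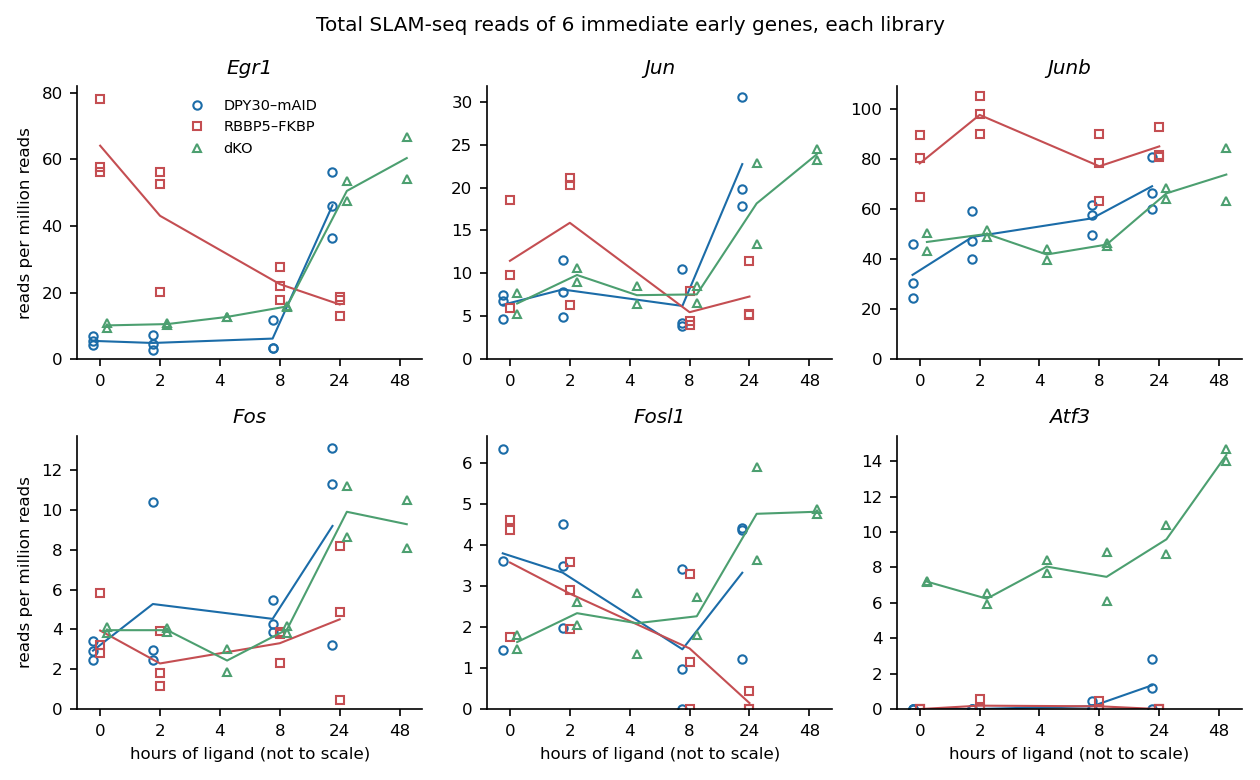
Total SLAM-seq reads in CPM for Egr1, Jun, Junb, Fos, Fosl1 and Atf3 against hours of ligand (auxin for DPY30–mAID and dKO, dTAG-13 for RBBP5–FKBP; the axis is not to scale). Each point is a library and lines join group means. Egr1 ends at 46.2 ± 9.9 in DPY30–mAID cells after starting at 5.51 ± 1.25, falls from 64.1 ± 12.2 to 16.5 ± 3.02 in RBBP5–FKBP cells, and Atf3 is at or near 0 outside dKO cells.

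Among the AP-1 subunits, Jun rose late in total reads of both lines with the DPY30 degron, and Fos and Fosl1 in dKO cells. Jun stood at 6.84, 7.48 and 4.71 CPM in DPY30–mAID cells at 0 h and at 30.5, 17.9 and 19.8 after 24 h, without overlap (1.82 ± 0.47, adjusted p = 0.0021). In dKO cells it went from 5.29 and 7.7 to 13.4 and 22.9 at 24 h (1.4 ± 0.27, adjusted p = 0.00327) and 23.2 and 24.5 at 48 h (1.77 ± 0.26, adjusted p = 0.000292). The 24 h call in dKO cells rested on replicate 2 of that time, without which the change was 0.96 (adjusted p = 0.0748). Fos had 26 and 32 reads in dKO cells at 0 h, 78 and 57 at 24 h and 53 and 71 at 48 h (1.26 ± 0.27, adjusted p = 0.00738, and 1.14 ± 0.27, adjusted p = 0.00994). Its call was lost at 24 h without replicate 1 of that time (1.05, adjusted p = 0.0964), and at 48 h without 0 h replicate 1 (1.07, adjusted p = 0.0562) or 48 h replicate 2 (0.92, adjusted p = 0.0812).

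Fosl1 had 10 and 14 reads in dKO cells at 0 h, 41 and 24 at 24 h and 32 and 32 at 48 h (1.47 ± 0.41, adjusted p = 0.0301, and 1.45 ± 0.41, adjusted p = 0.0254). These are few reads: the 24 h call was lost without either 0 h library (adjusted p = 0.141 and 0.0785) or without 24 h replicate 1 (0.264), and the 48 h call whichever library of the contrast was left out (adjusted p = 0.063 to 0.115). DESeq2 gave Fosl1 no adjusted p at 24 h and did not call it at 48 h (adjusted p = 0.0835). In DPY30–mAID cells Fos had 7, 7 and 8 reads at 0 h and 8, 27 and 28 at 24 h, and its log2 change of 1.63 ± 0.71 did not pass in edgeR (adjusted p = 0.0722), whereas DESeq2 called it (1.65, adjusted p = 0.0492). Fosl1 had too few reads to be tested in the other lines on their own: DPY30–mAID libraries held 13, 4 and 10 at 0 h and 11, 9 and 3 at 24 h, whereas RBBP5–FKBP libraries went from 10, 5 and 12 to 1, 0 and 0. The difference between those effects missed the threshold in the joint edgeR fit (adjusted p = 0.0524) and was called by DESeq2 (adjusted p = 0.028).

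Jun in RBBP5–FKBP cells ran from 6, 18.6 and 9.8 CPM at 0 h to 11.5, 5.12 and 5.3 at 24 h, with overlap (−0.68 ± 0.57, adjusted p = 0.503). The 24 h effects on Jun differed between RBBP5–FKBP and DPY30–mAID cells by −2.52 ± 0.65 (adjusted p = 0.00552; −1.8 and 0.0547 without RBBP5–FKBP replicate 2, so that the call was lost).

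In the lines with the DPY30 degron, Junb and Jund changed less than Jun at 24 h. Junb rose in DPY30–mAID cells from 24.4, 30.6 and 46 to 80.6, 66.4 and 60.1 CPM at 24 h, just past the 2-fold limit (1.01 ± 0.22, adjusted p = 0.000356; 0.73 without replicate 1 and 0.96 without replicate 2, both under the limit). In dKO cells it went from 43.2 and 50.4 to 68.5 and 63.9 at 24 h, with a log2 change of 0.43 ± 0.13 under that limit. Jund, with the uncertainty given above, stood at 202, 164 and 141 CPM in RBBP5–FKBP cells at 0 h, 95, 107 and 79.9 at 8 h and 98.8, 87.6 and 80.5 at 24 h. Its changes of −0.89 ± 0.19 and −0.96 ± 0.19 stayed within 2-fold, but differed from those in DPY30–mAID cells by −1.34 ± 0.25 at 8 h (adjusted p = 0.000943) and −1.2 ± 0.25 at 24 h (adjusted p = 0.000749; −0.97 without DPY30–mAID replicate 1, which is under the limit).

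Ier2, Ier3 and Dusp1 were not called over time in total reads of any line. Ier3 nevertheless went up and then down in DPY30–mAID cells: 39.1, 30.3 and 27.5 CPM at 0 h, 78, 64.9 and 58.3 after 8 h of auxin, then 12, 16.5 and 26.6 by 24 h. Libraries at 8 h lay above and those at 24 h below all 0 h libraries, with log2 changes of 0.96 ± 0.26 (adjusted p = 0.00885) and −0.81 ± 0.28 (adjusted p = 0.022), both within 2-fold. Dusp1 reached 61.8, 65.3 and 54.7 CPM at 8 h from 25.9, 49.2 and 40.6 at 0 h (0.54 ± 0.23, adjusted p = 0.117), and Ier2 stood at 71.2, 76.5 and 64.7 against 129, 103 and 85.5 (−0.68 ± 0.17, adjusted p = 0.0052).

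Counted over the members that passed the filter of a mean of 10 reads in at least 1 group, total reads in DPY30–mAID cells gave 0 of 8 called at 2 h and at 8 h and 3 of 8 at 24 h, all higher. Fosl1 and Atf3 did not pass it in DPY30–mAID or RBBP5–FKBP cells. The shares over all 9848 genes were 0%, 4.16% and 13.2% (6.16% called higher at 24 h). At an unadjusted p under 0.05 the count was 1 at 2 h and 5 at 8 h, and DESeq2 called 0 at either time. In RBBP5–FKBP cells 0, 1 and 1 of 8 were called, Egr1 alone, against 0%, 4.32% and 3.49% of 9676 genes; at 2 h none had an unadjusted p under 0.05 and DESeq2 called none. In dKO cells 0 of 10 were called at 2, 4 and 8 h (3 with an unadjusted p under 0.05 at each time and 0 by DESeq2), against 0%, 0% and 0.00878% of 11394 genes. At 24 and 48 h 4 of 10 were called there, all higher, against 1.5% and 2.44% of genes in either direction and 0.869% and 1.66% higher.

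Differences of the effects in total reads between lines were few elsewhere. Between RBBP5–FKBP and DPY30–mAID cells 0, 1 and 3 of 10 members were called at 2, 8 and 24 h, against 0.112%, 2.9% and 9.13% of all genes. Between dKO and DPY30–mAID cells none of 10 was called at 2, 8 or 24 h, against 0%, 0.484% and 4.48%, with 0, 4 and 2 at an unadjusted p under 0.05 and 0 by DESeq2 each time. At 2 h the first pair also had no member with an unadjusted p under 0.05 and none called by DESeq2.

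Newly made RNA was read next, as T>C CPM, the T>C reads of a gene scaled to 1000000 reads of its library, all reads counted. Because all reads set the scale, a loss of label over the whole library shows as a fall of most genes, and the median over all genes is given for each contrast. Of the members tested, Egr1 again moved furthest in DPY30–mAID cells. It had 9, 7 and 0 T>C reads at 0 h, 3, 6 and 5 at 2 h, none in any library at 8 h, and 52, 40 and 37 at 24 h. At 8 h it was at least 4.63-fold lower than at 0 h (adjusted p = 0.00998) and at least 4.43-fold lower than at 2 h (adjusted p = 0.0287), by the limit that 3 reads over the group set. Both limits rest on 16 and 14 reads in the higher group, with none in 0 h replicate 3, and the first went down to 1.79-fold without replicate 1 of both times and to 2.83-fold without replicate 2, the second to 2.72-fold and 2.68-fold without replicates 2 and 3. At 24 h it was at least 40.4-fold higher than at 8 h (adjusted p = 6.9e-06), a call kept under all 9 alternatives, with a limit of 24.1-fold without replicate 1. Against 0 h the 24 h rise was 3.01 ± 0.74 on the log2 scale (adjusted p = 0.0156). In these T>C reads Egr1 passed the filter of a mean of 10 reads only through the 24 h group, where it is high. With no filter the adjusted p was 0.00682 at 8 h and 0.00735 at 24 h against 0 h, and 0.0244 at 8 h against 2 h. These calls rest on few reads: without replicate 1 or 2 the adjusted p against 0 h was 0.107 and 0.186 at 8 h and 0.0906 and 0.3 at 24 h, and the 8 h call against 2 h was lost whichever replicate was left out (0.0631 to 0.389) and with T>C reads as their own scale (0.0907). DESeq2 gave Egr1 no adjusted p for 8 h against 2 h, and its 1 call there was Ier2 (−1, adjusted p = 0.0473).

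Ier3 and Ier2 moved in opposite directions at 8 h in these cells. Ier3 rose from 4.39, 3.56 and 4.35 to 19.2, 18.9 and 9.11 T>C CPM, without overlap and although the labelled share of the libraries was lower then (1.83 ± 0.59, adjusted p = 0.0272; lost without replicate 1, 1.72 and 0.0991, or replicate 2, 1.57 and 0.306, and in a fit of the 2 times alone, 1.81 and 0.0677). Its level was 4.81, 3.39 and 6.05 again at 24 h, a fall of 1.62 ± 0.58 from 8 h (adjusted p = 0.0441; 0.17 and 0.409 without replicates 1 and 2, 0.0867 in a fit of the 2 times alone and 0.0869 without the filter on low reads). Ier2 fell from 32.7, 31 and 31.5 to 16.6, 12.6 and 5.47 at 8 h (−1.55 ± 0.4, adjusted p = 0.00572; 0.188 without replicate 2 and 0.0565 in a fit of the 2 times alone) and stood at 42.9, 39.8 and 27.8 at 24 h, a rise of 1.75 ± 0.4 from 8 h (adjusted p = 0.00146; 0.135 without replicate 2). Jund also rose between 8 h (14.1, 6.78 and 14.1) and 24 h (38.1, 24.2 and 31.9), by 1.51 ± 0.42 (adjusted p = 0.00895; 0.223 without replicate 2). The median log2 change of all 6317 genes was −0.71 at 8 h and 0.56 from 8 to 24 h. When T>C reads set their own scale, which removes this shift, Ier2 at 8 h was −0.93 (adjusted p = 0.0685) and Jund from 8 to 24 h 0.87 (adjusted p = 0.106).

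Jun, Junb and Dusp1 were not called in DPY30–mAID cells. Their log2 changes at 24 h were 2.03 ± 0.92, 0.98 ± 0.43 and 1.06 ± 0.44, with adjusted p of 0.21, 0.191 and 0.165. Of 7 members tested (all but Fos, Fosl1 and Atf3), 0 were called at 2 h, 3 at 8 h, 1 at 24 h, 1 from 2 to 8 h and 4 from 8 to 24 h, and the shares over all genes were 0%, 14.6%, 3.56%, 5.97% and 17%. At 2 h 1 member, Jun, had an unadjusted p under 0.05 and DESeq2 called 0. The median over the 7 was −0.06, 0.11 and 0.98 at 2, 8 and 24 h, against −0.08, −0.71 and −0.14 over all genes. Because Egr1 entered through its own high group, and Jun through its 2 h and 24 h groups, these counts and medians only describe the members that passed.

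**Figure D2:**
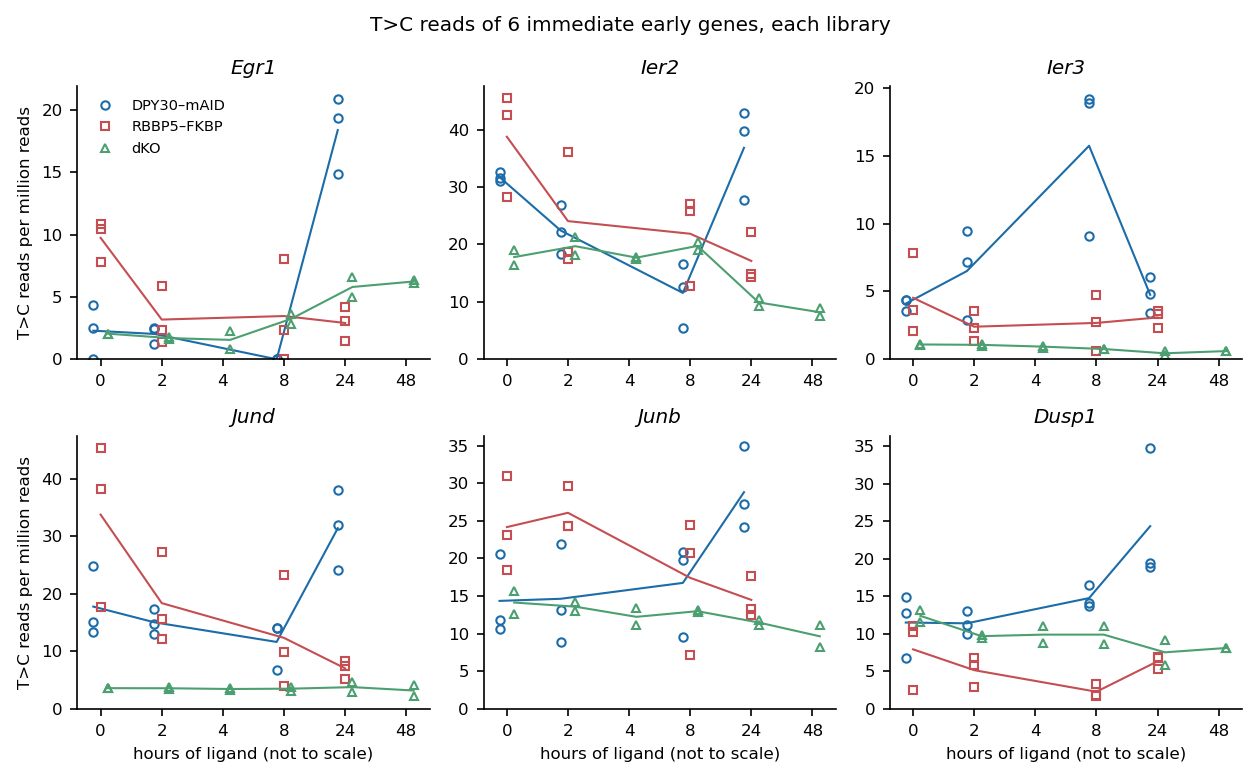
T>C CPM (T>C reads scaled to all reads of each library) for Egr1, Ier2, Ier3, Jund, Junb and Dusp1 against hours of ligand (not to scale), with a point for each library and lines through group means. In DPY30–mAID cells Egr1 is at 0 in all 8 h libraries and at 20.9, 19.4 and 14.9 at 24 h, and Ier3 is at 19.2, 18.9 and 9.11 at 8 h.

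In RBBP5–FKBP cells, no member was called higher in T>C reads at any time. Jund fell from 45.3, 38.2 and 17.8 T>C CPM at 0 h to 4.03, 23.2 and 9.87 at 8 h, with overlap (−1.48 ± 0.44, adjusted p = 0.0259; −0.8 and 0.435 without replicate 1, 0.0673 without replicate 3). At 24 h it stood at 7.53, 8.39 and 5.3, below all 0 h libraries (−2.27 ± 0.46, adjusted p = 0.000116), and this call held in all 9 alternatives. Ier2 fell from 28.2, 45.6 and 42.5 to 22.1, 14.4 and 14.9 at 24 h (−1.21 ± 0.35, adjusted p = 0.0066; 0.101 and 0.075 without replicates 2 and 3), while its total reads changed by −0.09 ± 0.23. The median of all 4761 genes was −0.91 at 24 h, and with T>C reads as their own scale Ier2 was at −0.5 (adjusted p = 0.525) and the 8 h value of Jund at −1.09 (adjusted p = 0.242). Egr1 had 7.85, 10.9 and 10.5 T>C CPM at 0 h and 3.1, 4.19 and 1.45 at 24 h, lower in each. Its change of −1.76 ± 0.79 did not pass (adjusted p = 0.0881). Egr1 and Ier3 passed the filter only through the 0 h group, their highest, so the filter itself leans towards a fall for them. The counts that follow only describe the members that passed. Of 6 members tested (Junb, Jund, Egr1, Ier2, Ier3 and Dusp1) 0, 1 and 2 were called at 2, 8 and 24 h and none from 2 to 8 h or from 8 to 24 h. The shares over all genes were 0.147%, 5.73%, 23% (22.9% called lower), 0.546% and 0.924%. At 2 h 3 had an unadjusted p under 0.05; in the 2 later steps none had; DESeq2 called 0 in each of the 3.

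In dKO cells the T>C reads of most genes fell late, and Egr1 did not fall with them. At 48 h 64.5% of 5965 genes were called and the median log2 change was −1.29. Egr1 had 14 and 16 T>C reads at 0 h, 46 and 33 at 24 h and 42 and 41 at 48 h, without overlap (1.43 ± 0.38, adjusted p = 0.00169, and 1.51 ± 0.37, adjusted p = 0.00034). Only 0.117% of genes were called higher at 24 h and the same share at 48 h, and Egr1 was called in all 10 alternatives at both times. Ier2 fell from 16.5 and 19.1 to 7.47 and 8.91 T>C CPM at 48 h (−1.21 ± 0.22, adjusted p = 2.25e-06), close to the median of all genes, and with T>C reads as their own scale its change was −0.02 (adjusted p = 0.977). Dusp1 at 24 h was −0.78 ± 0.25 and Junb at 48 h −0.64 ± 0.23, both within 2-fold. Fos, Jun and Atf3, which had at most 22 T>C reads in any library, changed by 0.37 ± 0.56, 0.62 ± 0.49 and −0.26 ± 0.59 at 24 h. Of 8 members tested (all but Fosl1 and Ier3) none was called at 2, 4 or 8 h (none with an unadjusted p under 0.05, none by DESeq2), 1 at 24 h and 2 at 48 h, against 0%, 0.201%, 0.721%, 27.7% and 64.5% of all genes. The median over the 8 was −0.12 at 24 h and −0.27 at 48 h, against −0.8 and −1.29 over all genes. Fos entered through its 24 h group alone, its highest, and Atf3 through its 0 h group alone, so that these counts and medians only describe the members that passed.

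**Figure D3:**
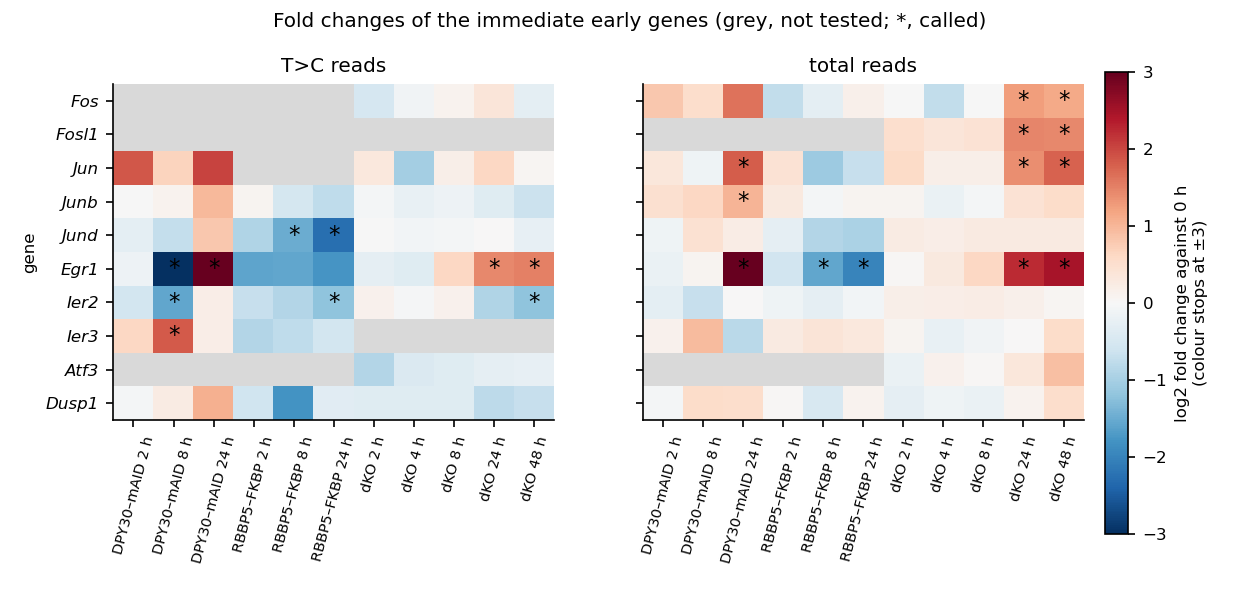
Log2 fold change against 0 h for each immediate early gene (rows) and each line and time (columns), in T>C reads (left) and total reads (right); red is higher, blue lower, the colour stops at ±3, grey was not tested and an asterisk marks a call. Egr1 is the darkest row, called higher at 24 h in DPY30–mAID and at 24 and 48 h in dKO cells in both measures. It is called lower at 8 and 24 h in RBBP5–FKBP cells in total reads, and at 8 h in DPY30–mAID cells in T>C reads.

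The effects on T>C reads were set against each other in a single fit for each pair of lines. At 24 h the effect in RBBP5–FKBP cells was below that in DPY30–mAID cells for Egr1 (log2 difference −4.78 ± 1.12, adjusted p = 0.00206), Jund (−3.09 ± 0.63, adjusted p = 0.000488) and Junb (−1.76 ± 0.6, adjusted p = 0.0454). The first 2 were called in all 11 alternatives. Egr1 passed the filter in this fit only through DPY30–mAID 24 h and RBBP5–FKBP 0 h, where it is high. High values in both of these groups make the difference more negative. With no filter its adjusted p was 0.00158. The counts below only describe the members that passed. Junb was called in 2 of 11, and was lost when any single replicate other than DPY30–mAID replicate 3 was left out (adjusted p = 0.0543 to 0.311). These tests were added after the values were seen. Counts were 0, 0 and 3 of 7 at 2, 8 and 24 h, against 0%, 0.0937% and 8.46% of 6404 genes, with 0 and 3 members at an unadjusted p under 0.05 at 2 and 8 h and 0 by DESeq2. Between dKO and DPY30–mAID cells, Dusp1 alone was called, at 24 h: it went from 11.6 and 13.2 to 9.2 and 5.9 T>C CPM in dKO cells and from 6.84, 12.8 and 14.9 to 18.9, 19.4 and 34.7 in DPY30–mAID cells. The effects differed by −1.82 ± 0.53 (adjusted p = 0.0477), close to the threshold, and the call was lost in 8 of 12 alternatives. Among the libraries left out, DPY30–mAID replicate 2 (adjusted p = 0.0996) and each dKO library at 0 h (0.0697 and 0.243) and at 24 h (0.125 and 0.251) took it away. Egr1 at 8 h came to an adjusted p of 0.051. The counts of 0, 0 and 1 of 9 members at 2, 8 and 24 h stood against 0%, 0.319% and 2.41% of 6901 genes. At 2 and 8 h 0 and 3 had an unadjusted p under 0.05, and DESeq2 called 0 and 1 (Ier2).

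The share of a gene's reads that carry a T>C conversion shows how much of its RNA was made during the label. For most members it lay above the middle of all genes before any ligand. In dKO cells at 0 h, with libraries pooled, the share was 32.8% for Fos (exact 95% interval 21 to 46.3%; 58 reads), 30.3% for Junb (26.9 to 33.9%), 29.5% for Dusp1 (25.9 to 33.3%), 26% for Jun (17.6 to 36%), 20.1% for Egr1, 20% for Atf3 and 19.1% for Ier2. The median of 9563 genes there was 5.43% and the 90th percentile 14.6%, so these 7 lay past the 90th percentile, Fos at percentile 99.8. Jund (7.64%) and Ier3 (11.4%) lay below that percentile. In RBBP5–FKBP cells (median 10.2%, 90th percentile 22.8%) Dusp1 had 36.4% (29 to 44.2%, percentile 99.2), Ier2 31.1% (28.2 to 34.1%), Junb 30.3% (26.7 to 34.1%) and Ier3 23.6%, while Jund had 19.8%, Egr1 15.3% and Jun 9.68%. In DPY30–mAID cells (median 18.9%, 90th percentile 34.6%) Junb had 42.6% (36.5 to 48.8%, percentile 97.3), Ier2 30.5%, Jund 30%, Dusp1 30% and Ier3 12.9%, the last below the median. Intervals cover counting error only, since reads without molecular identifiers are not independent molecules. Each T>C read held on average 1.03 to 1.32 conversions, and the T positions covered per read differed (18.7 in DPY30–mAID and RBBP5–FKBP cells, 11.2 in dKO cells), so shares compare within a line only. Genes also differ in the T positions their reads cover. As conversions per covered T in DPY30–mAID cells, Dusp1 stood at percentile 53.7 of all genes (81.5 by share), Jund at 64.5 (81.3), Ier2 at 89.1 (82.5) and Junb at 96.5 (97.3), and in dKO cells the 7 genes past the 90th percentile by share lay at percentiles 97.1 to 99.9.

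**Figure D4:**
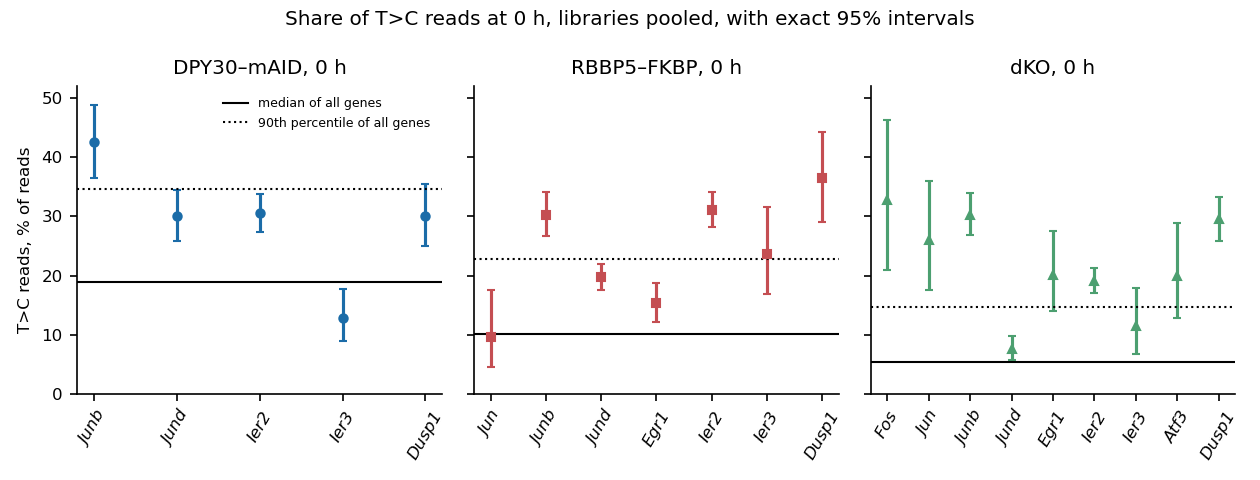
T>C reads as a percent of all reads at 0 h for members with at least 50 pooled reads, with exact 95% intervals, in each line; the solid line is the median of all genes and the dotted line their 90th percentile. In dKO cells every plotted gene but Jund and Ier3 has its point above the dotted line, and in DPY30–mAID cells only Junb does.

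In the unlabelled Quant-seq libraries, pooled, the share of the members was 0 to 0.959%, the background of the measure. In RBBP5–FKBP and dKO cells the shares mostly went down with time in ligand. Junb went from 30.3% of pooled reads at 0 h to 17.1% at 24 h in RBBP5–FKBP cells and to 13.1% at 48 h in dKO cells. Ier2 went from 31.1% to 14.5% and from 19.1% to 7.96%. Egr1 in dKO cells went from 20.1% to 10.3% at 48 h while its total reads rose, and in DPY30–mAID cells held 39% at 0 h and 39.2% at 24 h. The mean share over the libraries of that line went from 29.1% to 13.1% at 8 h for Jund and from 30.7% to 16.1% for Ier2, without overlap. At 24 h more shares there were higher than lower: Jund stood at 44.3% and Ier3 at 27.8% against 12.9% at 0 h, both without overlap, and Dusp1 at 43% against 29.7%, with overlap. Over whole libraries the T>C share also fell, to 4.85 to 5.33% at 24 h in RBBP5–FKBP cells and 2.04 to 2.37% at 48 h in dKO cells, and its part in the members' shares was not tested. No share passed an exact permutation test (two-sided) among 101 comparisons with 0 h (smallest adjusted p = 0.591); 3 libraries against 3 cannot go below p = 0.1, and 2 against 2 cannot come as low. The groups did not overlap in 40 comparisons that went down and in 4 that went up. Groups of 2 libraries against 2, as in dKO cells, lie apart by chance more often than 3 against 3. The same count was not made over all genes, so these counts only describe the members.

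RA treatment in DMSO, measured by Quant-seq, changed Jun and Atf3 most. Jun had 5 and 6 reads at 0 h, 2 and 6 at 8 h and 10 and 9 on day 1, then 176 and 138 on day 2, 285 and 239 on day 4 and 278 on day 6. It rose by 4.96 ± 0.33, 5.49 ± 0.31 and 5.5 ± 0.34 on the log2 scale on days 2, 4 and 6 (adjusted p = 1.66e-12, 4.25e-14 and 2.15e-13), and was called in all alternatives. Atf3 had no read at 0 h, 8 and 10 at 8 h, 35 and 39 on day 1, 73 and 90 on day 2, 7 and 14 on day 4 and 40 on day 6. Against the limit of 3 reads it was at least 6.67, 32.2, 63.5, 7.66 and 28.1-fold higher in turn (adjusted p = 0.00073, 1.01e-08, 1.15e-10, 0.000133 and 1.49e-07). Without 0 h replicate 2, which leaves less depth behind the limit, it was at least 3.12, 15.1, 29.7, 3.58 and 13.1-fold higher. Jun and Atf3 passed the filter on low reads only through RA groups, in which they are high. For Atf3 the day 2 libraries were the highest and the day 4 libraries lay below those of days 1, 2 and 6.

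Ier3 and Junb fell early in RA. Ier3 stood at 36.7 and 29.9 CPM at 0 h and at 11.5 and 12.2 after 8 h, with log2 changes of −1.42 ± 0.27, −1.27 ± 0.28, −1.25 ± 0.27 and −1.86 ± 0.28 at 8 h and days 1, 2 and 4 (adjusted p = 0.000493, 0.000397, 0.000357 and 3.13e-06). The day 2 change was −0.93 without day 2 replicate 1, within 2-fold, and that of day 6 −0.81 ± 0.31. Junb stood at 41.7 and 29.1 at 0 h, 12.5 and 9.65 at 8 h and 20.1 and 11 on day 1 (−1.62 ± 0.28, adjusted p = 0.000117, and −1.17 ± 0.27, adjusted p = 0.000678; the day 1 change was −0.89 without 0 h replicate 1 and −0.8 without day 1 replicate 2). It was called again on day 4 (−1.29 ± 0.26, adjusted p = 0.00013), with −0.72 ± 0.25 on day 2 and −0.93 ± 0.31 on day 6.

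Ier2 and Dusp1 were called lower only on days 4 and 6. Ier2 already stood at 69.1 ± 3.5 CPM on day 1 and 87.5 ± 2.84 on day 2, against 110 ± 20.6 at 0 h (SD, n = 2 each). Ier2 went from 95.9 and 125 CPM at 0 h to 63.5 and 56 on day 4 and 30.8 on day 6 (−1.07 ± 0.16, adjusted p = 2.17e-06, and −2.04 ± 0.22, adjusted p = 1.3e-08; the day 4 change was −0.86 without 0 h replicate 2, −0.98 without day 4 replicate 2 and −0.89 without TMM scaling). Dusp1 went from 34.5 and 34.2 to 13.1 and 12.6 on day 4 (−1.6 ± 0.24, adjusted p = 3.8e-06) and 18.1 on day 6 (−1.12 ± 0.29, adjusted p = 0.00163; −0.92 without TMM scaling, within 2-fold). Jund rose to 289 CPM on day 6 from 150 and 118, within 2-fold (0.92 ± 0.16). Egr1 stayed between 1.1 and 7.49 CPM in all DMSO libraries, Fos had at most 6 reads in any of them, and Fosl1, with 7 reads in all 21 Quant-seq libraries, was not tested. Day 6 has a single library, and its spread was assumed to be that of the other groups.

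Of 9 members tested against 0 h, 3, 3, 3, 6 and 4 were called at 8 h and after 1, 2, 4 and 6 days. The shares over all 11415 genes were 6.5%, 29.4%, 26.3%, 30.7% and 37%. Over these days the summed ES markers went from 4304 and 4555 CPM at 0 h to 887 on day 6, and primitive endoderm markers from 8.96 and 9.44 to 2830. The part of such a change in cell identity in the members' values was not tested.

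**Figure D5:**
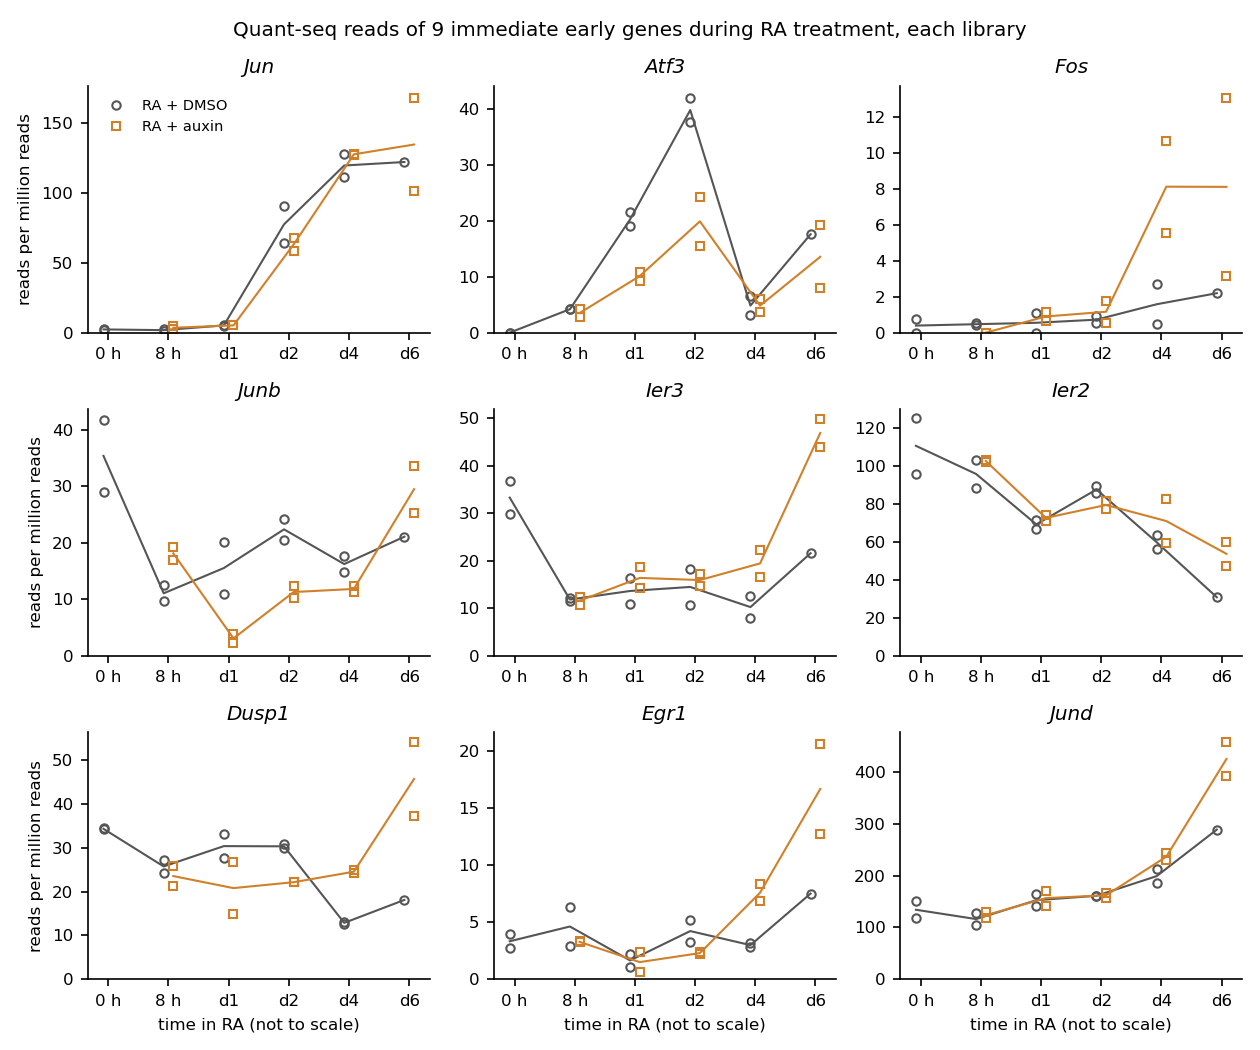
Quant-seq reads in CPM for 9 immediate early genes against time in RA (not to scale), with DMSO (circles) or auxin (squares); each point is a library and lines join group means. Jun reaches 111 to 128 CPM on day 4 in DMSO, Atf3 peaks at 37.6 and 42 on day 2, and Junb on day 1 is at 2.33 and 3.86 with auxin against 20.1 and 11 in DMSO.

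Loss of DPY30 during RA treatment was tested by auxin against DMSO at the same time. Jun did not pass the test at any time: it stood at 127 and 128 CPM on day 4 with auxin and 128 and 111 in DMSO (log2 difference −0.12 ± 0.17, adjusted p = 0.684). Junb was lower with auxin on day 1, at 4 and 6 reads against 37 and 20 (−2.31 ± 0.44, adjusted p = 0.00139), and on day 2, at 23 and 17 against 40 and 52 (−1.09 ± 0.31, adjusted p = 0.0165). The day 1 call was lost without auxin replicate 1 (0.0523) or DMSO replicate 1 (0.0589), the day 2 call without either auxin library (0.0636 and 0.138) or DMSO replicate 2 (0.137) and by DESeq2 (0.106), which gave no adjusted p for day 1; without TMM scaling the day 2 change was −0.98, within 2-fold. Atf3 was lower with auxin on day 2, at 24.3 and 15.5 against 37.6 and 42 CPM (−1.1 ± 0.28, adjusted p = 0.00977; 0.166 without auxin replicate 2, 0.0863 without DMSO replicate 2, 0.143 by DESeq2, and −0.99 without TMM scaling, within 2-fold). On day 2 the primitive endoderm markers summed to 199 to 223 CPM with auxin against 332 to 352 in DMSO (2 of 5 called lower) and the fibroblast markers to 20.6 to 24.5 against 7.93 to 8.24 (1 of 5 called higher, with Col3a1 at 0 with auxin). On day 1 they stood at 32.6 to 38.6 against 36.9 to 38.5 and at 3.22 to 7.57 against 4.88 to 6.61, with none of either list called. Their part in the Junb and Atf3 differences on day 2 was not tested.

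Later in RA, Fos on day 4 and Dusp1 on day 6 were called higher with auxin, neither in every alternative. Fos had 9 and 18 reads on day 4 with auxin against 6 and 1 (2.09 ± 0.73, adjusted p = 0.046), a call lost without either auxin library (0.0546 and 0.339), without DMSO replicate 2 (0.319) and by DESeq2 (0.317). With single libraries left out its log2 change ran from 1.36 to 3.74. Fos passed the filter in Quant-seq only through the auxin groups of days 4 and 6, where it is high (adjusted p = 0.0255 with no filter). Dusp1 stood at 54.3 and 37.2 CPM on day 6 against 18.1 in the DMSO library (1.15 ± 0.29, adjusted p = 0.00602; 0.89 without auxin replicate 1, within 2-fold). The single DMSO library takes its spread from the other groups, and in a fit of the day 6 groups alone the change was 1.13 (adjusted p = 0.305). Ier3 and Egr1 on day 6 were at 44 and 49.8 against 21.6 (0.92 ± 0.31, adjusted p = 0.0397, within 2-fold) and at 20.6 and 12.7 against 7.49 (0.96 ± 0.47, adjusted p = 0.162). Of 9 members 0, 1, 2, 1 and 1 were called at 8 h and days 1, 2, 4 and 6, against 0.166%, 2.44%, 4.75%, 7.3% and 10.2% of all genes. At 8 h 1 member, Junb, had an unadjusted p under 0.05 and DESeq2 called 0. Junb was then higher with auxin, at 19.3 and 17 against 12.5 and 9.65 CPM, opposite to days 1 and 2. The primitive endoderm markers summed to 546 and 557 CPM with auxin on day 4 against 1412 and 1423 in DMSO, and to 544 and 689 against 2830 on day 6. The fibroblast markers summed to 54 to 54.6 against 28.9 to 38.7 on day 4 and to 67.2 to 72.2 against 33 on day 6, with 1 of 5 called higher each day. The ES markers summed to 1433 to 1489 against 1869 to 1895 on day 4 (1 of 6 called lower) and to 1122 to 1220 against 887 on day 6 (3 of 6 called higher). The part of these markers in the differences was not tested.

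Other genes of the same program were taken as lists. Of 36 further immediate early genes, 25 were tested in total reads of DPY30–mAID cells and 3 were called higher and 4 lower at 24 h, where 6.16% and 7.06% of all genes were. In RBBP5–FKBP cells 6 of 25 were called at 8 h and 5 at 24 h, all lower, against 2.1% and 1.86% of all genes called lower. In dKO cells 3 of 29 were called at 24 h and 5 at 48 h, all higher, against 0.869% and 1.66%. Fosl2, a further FOS-family subunit, rose in dKO cells by 2 ± 0.39 at 24 h (adjusted p = 0.00382) and 2.2 ± 0.38 at 48 h (adjusted p = 0.00113). Ccn2, a matricellular gene, rose by 1.31 ± 0.29 in DPY30–mAID cells at 24 h (adjusted p = 0.000326) and by 2.41 ± 0.58 in dKO cells (adjusted p = 0.0138). Trib1, a pseudokinase gene, fell in RBBP5–FKBP cells by 1.27 ± 0.38 at 8 h (adjusted p = 0.0369) and 2.02 ± 0.39 at 24 h (adjusted p = 0.00191). The median log2 change over the list was 0.09, −0.25 and 0.35 at 24 h in DPY30–mAID, RBBP5–FKBP and dKO cells, against 0.01, 0.02 and 0.01 over all genes.

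In T>C reads of DPY30–mAID cells 4 of 20 listed genes were called at 8 h, all lower, against 14.6% of all genes. In RBBP5–FKBP cells 5 of 16 were lower at 24 h, against 22.9% of all genes, and in dKO cells 2 were higher and 6 lower of 24 at 24 h and 1 higher and 7 lower at 48 h, against 27.7% and 64.5% called. In DPY30–mAID cells 7 of 20 were called from 8 to 24 h, all higher, Ccn2 among them (2.46 ± 0.51, adjusted p = 0.000593), where 16.1% of all genes were called higher and the median change was 1.12 over the list and 0.56 over all genes. In RA, 10, 13, 13 and 13 of 30 listed genes were higher and 7, 4, 3 and 5 lower on days 1, 2, 4 and 6. Over all genes 17.1%, 16.3%, 19.6% and 22.6% were called higher and 12.3%, 9.97%, 11.1% and 14.4% lower. Fosl2 was called higher on days 2, 4 and 6, Gadd45g, a stress-response gene, at every RA time, and Ccn1, a matricellular gene, on day 6. Each had at most 3 reads at 0 h in all, so that no fold is given for them.

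Genes that carry the signal to these promoters were taken as a list of their own. Of 12 upstream kinases and factors in the files, Mrtfb, a coactivator of SRF, alone was called in total reads of these time courses, at 24 h in DPY30–mAID cells (−1.09 ± 0.44, adjusted p = 0.0483). At that time 13.2% of all genes were called. In RA 4 were lower on day 1 and 3 higher on day 6, against 12.3% of all genes lower and 22.6% higher, with Rps6ka1, a kinase downstream of ERK, at −1.83 ± 0.16 on day 1 (adjusted p = 3.65e-10), and Elk3, a ternary complex factor, at 1.85 ± 0.35 on day 4 (adjusted p = 8.9e-05). Among AP-1 dimer partners, Atf4 rose by 1.03 ± 0.19 in RBBP5–FKBP cells at 24 h (adjusted p = 0.00117), 1 of 6 tested against 3.49% of all genes. In DPY30–mAID cells at 24 h 2 of 6 were called in total reads, against 13.2% of all genes. Atf7 fell by 1.6 ± 0.24 in total reads (adjusted p = 4.53e-07) and by 1.85 ± 0.53 in T>C reads (adjusted p = 0.0357), and Jdp2 rose by 1.65 ± 0.61 in total reads (adjusted p = 0.0311). Maf was called higher in RA on days 2, 4 and 6. With auxin on day 4 of RA 3 of 8 partners were lower, against 2.88% of all genes: Maf (−1.48 ± 0.48, adjusted p = 0.0333), Jdp2 (−1.24 ± 0.39, adjusted p = 0.0245) and Atf4 (−1.2 ± 0.13, adjusted p = 9.64e-08).

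Junb, Jund, Egr1, Ier2 and Dusp1 were the 5 members that passed the filter on T>C reads in every SLAM-seq line. They were compared by the correlation of their group means over all 14 SLAM-seq groups. Outside dKO cells, Egr1 passed only through DPY30–mAID 24 h and RBBP5–FKBP 0 h, where it is high. It had no T>C read in DPY30–mAID cells at 8 h, so its profile rests partly on few or no reads. Pairs of members correlated at Pearson's r = 0.34 to 0.78, and their mean profile was most like those of Atp5o (r = 0.97), Coq10b (0.95), Commd2 (0.93), Myl12a (0.92) and Laptm4a (0.92) among 4324 genes. These groups share lines and the labelled share of their libraries, so the values only describe the pattern.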

How the data were processed

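The deposited tables were made by the authors with SlamDunk (version 0.3.4 per the file headers) and hold counts per 3′ UTR interval: all reads, and reads with a T>C conversion. The same header stands on the Quant-seq tables, for which the study names HISAT2 (version 2.2.1 in the submitters' processing notes) and featureCounts. The methods ask for at least 2 conversions per labelled read, whereas the T>C reads in the files held 1.03 to 1.32 on average. ERCC spike-ins were added by the authors but are not used here. Of 46420 intervals, rows of the same Ensembl identifier were summed to 20177 genes, with symbols from GENCODE vM21.

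Tests were run with edgeR 4.0.16 (R 4.3.3; quasi-likelihood test, two-sided, Benjamini-Hochberg adjustment over all tested genes), on genes whose mean reached 10 reads in any group. T>C counts were fitted with total reads × TMM factors of total reads as library size, so that T>C changes are relative to all RNA. A call needs an adjusted p below 0.05 and a change over 2-fold. A value against a group at 0 was bounded by 3 reads over the group. Leaving out 1 of 2 libraries leaves a lone library that is assumed to vary like the others. T>C shares have exact 95% intervals (Clopper-Pearson) and were compared by exact permutation tests (scipy 1.17.1). The 2 DMSO day 6 tables were identical and counted as 1 library. Comparisons with the same 0 h libraries share those libraries. The code was tested on simulated counts.

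The 10 genes and all gene lists were chosen with earlier results of these data known. All 10 are described, and at most 5 genes of each other list are named, by the largest change among calls. The comparisons between lines, the difference of RBBP5–FKBP and DPY30–mAID effects and the AU-rich search were added after the values were seen. Alternatives were DESeq2 1.42.0, other scalings, no filter on low counts, fits of 2 groups, a replicate block, the adjusted p alone and leaving out each library.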

Additional observations from a re-analysis of the deposited data

Results flagged for a closer look

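The effects of degradation differed between lines, by a test of the difference itself, for 5 members, and 2 of them rest on calls that few alternatives kept. In total reads at 24 h, the RBBP5–FKBP effect lay below the DPY30–mAID effect for Egr1 (log2 difference −5.07), Jun (−2.52) and Jund (−1.2), and at 8 h for Jund (−1.34). In T>C reads at 24 h the same held for Egr1 (−4.78), Jund (−3.09) and Junb (−1.76). Egr1 passed the T>C filter only through DPY30–mAID 24 h and RBBP5–FKBP 0 h, where it is high. High values in both of these groups make this difference more negative. Over all genes 9.13% were called in total reads at 24 h, 2.9% at 8 h and 8.46% in T>C reads at 24 h. Jun was lost without RBBP5–FKBP replicate 2 (−1.8, adjusted p = 0.0547), Jund in total reads at 24 h was within 2-fold without DPY30–mAID replicate 1 (−0.97), and Junb was called in 2 of 11 alternatives (−1.1, adjusted p = 0.263, with T>C reads as their own scale). The tests between these lines were added after the values were seen. Between dKO and DPY30–mAID cells, the T>C effect at 24 h differed for Dusp1 (−1.82), against 2.41% of all genes, a call kept in 4 of 12 alternatives (−1.22, adjusted p = 0.165, with T>C reads as their own scale). The lines also differed at 0 h, with Egr1, Junb and Jund starting higher in RBBP5–FKBP cells, so that an effect here is relative to a different starting level. The median difference of all genes in T>C reads at 24 h was −0.66 between RBBP5–FKBP and DPY30–mAID cells and −0.68 between dKO and DPY30–mAID cells. The part of these shifts and starting levels in the differences was not tested.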

How the results depend on the processing

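Of 65 calls on the members, 34 held in every alternative that could be fitted, 31 were lost in at least 1, and 0 changed sign. Counts of called members that moved by over 1.5 times were these, with the cause not tested. With DESeq2 the count went from 0 to 1 for the dKO against DPY30–mAID difference in T>C reads at 8 h and from 1 to 2 for the total-read difference between RBBP5–FKBP and DPY30–mAID cells at 8 h, and auxin against DMSO on days 1, 2 and 4 of RA went from 1, 2 and 1 to 0 (it gave Junb no adjusted p on day 1, which is no lost call). DESeq2 also moved 5 counts by 1 call: to 4 for DPY30–mAID total reads at 24 h, to 3 for dKO total reads at 24 h (no adjusted p for Fosl1) and 48 h, and to 4 for the RBBP5–FKBP against DPY30–mAID difference at 24 h in T>C and in total reads. With TMM factors from T>C reads, which remove a loss of label common to all genes, counts went to 3 for DPY30–mAID at 24 h, 0 and 1 for RBBP5–FKBP at 8 and 24 h, 1 for dKO at 48 h, and 2 and 0 for the dKO against DPY30–mAID difference at 8 and 24 h. With the adjusted p alone, T>C counts in dKO cells were 3 and 4 at 24 and 48 h, total-read counts 2 for DPY30–mAID at 8 h, 2 and 2 for RBBP5–FKBP at 8 and 24 h and 7 for dKO at 48 h, RA counts 5 and 7 on days 2 and 6, and the auxin count 2 on day 6. Fits of 2 groups gave 0 in T>C reads of DPY30–mAID cells at 8 h, against 0 h and against 2 h, 2 in total reads of dKO cells at 48 h, and 0 for auxin on day 6. Without TMM the counts were 0 for the dKO difference at 24 h, 1 for DPY30–mAID total reads at 8 h, and 0 and 2 for auxin on days 2 and 6 (Dusp1 on RA day 6 then fell by 0.92 on the log2 scale, within 2-fold). Without the filter on low counts the dKO difference gave 1 at 8 h and 0 at 24 h, and the total-read difference between lines 2 at 8 h.

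Leaving out a library gave counts of 0 to 3 (8 h), 0 to 2 (24 h), 0 (2 to 8 h) and 1 to 4 (8 to 24 h) in T>C reads of DPY30–mAID cells, 0 to 1 (8 h) and 1 to 2 (24 h) in RBBP5–FKBP cells, and 2 at 24 h in dKO cells. It gave 0 to 1 and 0 to 3 for the dKO difference at 8 and 24 h, 1 to 2 and 2 to 6 for the total-read difference between lines at 8 and 24 h, 1 to 2 for RBBP5–FKBP total reads at 24 h and 2 to 3 for dKO total reads at 24 and at 48 h. For auxin in RA it gave 0 to 1, 0 to 2, 0 to 1 and 1 to 2 on days 1, 2, 4 and 6.

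Replicate numbers were not taken to pair the libraries, since no set had every same-number pair of deviations correlated above 0.1 (−0.16 to 0.31 over all sets; above 0.1 in 6 of 30 pairs in dKO total reads, 4 of 90 in Quant-seq and 1 of 18 in RBBP5–FKBP total reads). In dKO cells 12 of 12 libraries in T>C reads and 10 of 12 in total reads correlated best with their own number, a hint from the data only. With the replicate block the total-read difference between lines at 8 h gave 2 calls, and auxin on day 4 gave 0 (Fos 2.11, adjusted p = 0.0523). The block also ended the calls of Ier3 from 8 to 24 h in T>C reads of DPY30–mAID cells (−1.64, adjusted p = 0.0507) and of Junb in the RBBP5–FKBP against DPY30–mAID difference (−1.68, adjusted p = 0.0704). SLAM-seq libraries of 1721185 to 2852331 reads leave Fos at a mean of at most 21 reads in every DPY30–mAID and RBBP5–FKBP time group, and Fosl1 and Atf3 lower still there, so that smaller changes in them were not detectable at this depth.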
